A study of Mus musculus with 18 samples.

Results

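FGF5, POU3F1, OTX2, GRM6 and 7420416P09RIK (now VRTN) are 5 transcripts that were low in FGF2-treated co-cultures of murine embryonic stem (ES) cells and stroma. They are described here on every array of the series. They were chosen as a named set because of their intensities in co-cultures with FGF2 against co-cultures without growth factors, so that comparison is a description and carries no test. They are 5 of the 30854 gene names on the array and 5 of the 16446 genes that were tested. Each is measured by 1 probe, and all 5 probes passed the filter on dim probes.

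The study asked which pathways lead ES cells on stroma to endothelium when FGF2 or BMP4 is added, where cultures without growth factors mainly form neurons. Murine ES cells were grown on PA6 cells, a stromal line from mouse skull bone marrow (ES/PA6 co-cultures), and PA6 cells were also grown alone (PA6 mono-cultures). The ES cells are 1 line, a τ-EGFP knock-in, which carries the green fluorescent protein in the gene of a neuronal microtubule protein. Both culture types were kept in serum-free medium, and RNA was collected on day 3. One group of each received no growth factors (-GFs), another 20 ng/ml of FGF2 and the last 10 ng/ml of BMP4. This gave 6 groups of 3 arrays, 18 in all, and a replicate was 1 culture per condition. Co-culture RNA comes from ES-derived and PA6 cells together, so that fewer cells of a type and less RNA per cell cannot be told apart.

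ES cells resemble the naive epiblast of the early embryo. Before they form germ layers or neural tissue they pass through a formative and then a primed state, which resembles the epiblast around implantation and after it. Naive factors are switched off on the way, and FGF5, OTX2 and POU3F1 come on. OTX2 is a homeodomain factor that directs enhancers to the primed pattern and later specifies the forebrain, POU3F1 (OCT6) is a POU-domain factor of the epiblast and early neural plate, and FGF5 is a secreted FGF widely used as the marker of the post-implantation epiblast. FGF signalling through ERK is itself known to drive the exit from the naive state. VRTN (vertnin) is a DNA-binding protein known for its part in vertebral number, and GRM6 is a metabotropic glutamate receptor known from the ON bipolar cells of the retina.

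Signal over background was in a narrow range. Between 19365 and 20412 probes were detected per ES/PA6 array and between 17125 and 18391 per PA6 array, where detected means a detection p under 0.05 against the negative control beads. Over the kept probes, the correlation within a group was r = 0.981 to 0.989 for ES/PA6 and 0.989 to 0.992 for PA6 alone, and fell to between 0.799 and 0.865 across culture types. The label of the co-cultures was checked with 9 ES cell markers, POU5F1, SOX2, SALL4, LIN28, DPPA5, UTF1, TDGF1, ZFP42 and NANOG. Their summed level, on the log2 scale, was 16.31 to 16.81 on the co-culture arrays and 8.66 to 9.14 on the PA6 arrays, where 6 to 7 of the 9 were undetected. Of 12 stromal markers 11 were measured, and POSTN was detected in PA6 mono-cultures but on no co-culture array.

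Because the 5 genes were low together, the sequences around their start sites are shown, as RefSeq gives them for GRCm38.p6. These windows hold 250 bases before and 50 bases after an annotated start. RefSeq holds 1 window for Fgf5, 1 for Grm6, 4 for Otx2 and 3 for Vrtn. Pou3f1 was not matched. The Fgf5 window is the promoter of the gene with the largest fitted difference, the Grm6 window belongs to a gene that went undetected with FGF2, and the third of the Otx2 windows is the one with an OTX2-type motif. They are printed 5′ to 3′ on the strand of the gene with motif matches in capitals.
Fgf5, chr5:98253934-98254233, plus strand: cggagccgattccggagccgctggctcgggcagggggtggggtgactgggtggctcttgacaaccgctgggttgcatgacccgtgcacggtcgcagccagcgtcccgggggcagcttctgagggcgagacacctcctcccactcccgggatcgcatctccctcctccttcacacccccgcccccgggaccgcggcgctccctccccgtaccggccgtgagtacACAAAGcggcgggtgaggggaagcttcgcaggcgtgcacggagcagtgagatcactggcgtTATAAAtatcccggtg
Otx2, chr14:48665060-48665359, minus strand: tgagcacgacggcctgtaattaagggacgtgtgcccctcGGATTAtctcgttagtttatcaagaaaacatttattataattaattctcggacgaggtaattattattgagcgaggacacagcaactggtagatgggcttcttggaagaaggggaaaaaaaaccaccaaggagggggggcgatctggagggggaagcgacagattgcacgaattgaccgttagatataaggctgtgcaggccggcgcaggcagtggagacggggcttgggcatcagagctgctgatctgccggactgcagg
Grm6, chr11:50850435-50850734, plus strand: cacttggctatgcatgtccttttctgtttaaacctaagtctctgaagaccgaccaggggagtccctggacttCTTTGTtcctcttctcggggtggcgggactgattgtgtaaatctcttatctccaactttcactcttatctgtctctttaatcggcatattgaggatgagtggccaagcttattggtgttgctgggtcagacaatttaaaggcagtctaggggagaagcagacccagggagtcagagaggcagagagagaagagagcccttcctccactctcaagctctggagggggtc

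Both strands were searched for 6 motifs. These were ATGCAAAT of POU factors, TAATCC of OTX2-type homeodomain factors, CTTTGA of TCF/LEF factors, ACAAAG of SOX factors, the E-box CACGTG and the TATA box TATAAA. In the Fgf5 window, ACAAAG begins 27 bases before the start and TATAAA begins 34 bases after it. In the Otx2 window TAATCC lies on the other strand, so it reads GGATTA here, and begins 211 bases before the start. In the Grm6 window ACAAAG lies on the other strand and reads CTTTGT, 178 bases before the start. Among all 32851 promoter windows, ACAAAG was found in 18.7%, TATAAA in 13.6% and TAATCC in 7.06%, so these matches are common ones. The POU motif was present in 1.74% of all windows, CTTTGA in 16% and CACGTG in 7.15%, and these letters were not found in the 3 windows printed. A match is a description of the letters and not a measured binding site.

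FGF5 had the largest fitted difference of the 5. It lies at chr5:98254184-98277033 (GRCm38.p6) and is read by probe ILMN_2642743. Its normalized log2 intensity in replicates 1, 2 and 3 was 10.48, 10.83 and 10.01 without growth factors, 6.02, 5.72 and 7.06 with FGF2, and 9.90, 9.83 and 9.63 with BMP4. All -GFs and BMP4 arrays were above all FGF2 arrays, and FGF5 was detected in 2 of the 3 FGF2 cultures. The group means were 10.44 ± 0.411 without growth factors, 6.27 ± 0.706 with FGF2 and 9.78 ± 0.143 with BMP4 (SD, n = 3). With FGF2 the level was 5.56% of that without, an 18-fold difference, at a log2 difference of -4.17 ± 0.26 (SE). This size rests on values near background. FGF2 replicates 1 and 2 lay near the lowest detected level of their arrays, 5.88 and 5.91. After cubic spline normalization the difference was -3.08.

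POU3F1 remained well detected in every co-culture. The gene lies at chr4:124657646-124660655, and its probe is ILMN_1233172. Its log2 intensity was 12.47, 12.55 and 11.54 without growth factors, 9.29, 9.44 and 8.79 with FGF2, and 11.51, 11.35 and 10.96 with BMP4. The 3 ranges do not overlap and BMP4 lies between the others. With FGF2 the level was 12.4% of that without growth factors, 8.08-fold lower, at a log2 difference of -3.01 ± 0.231 (SE). Replicate 3 was the lowest in each of the 3 groups.

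OTX2 had the smallest fitted difference of the 5 with FGF2, though after cubic spline normalization it differed by -2.41 and GRM6 and VRTN by -2.0 and -1.98. Its -GFs replicates lay closest together (SD 0.0907, n = 3). It lies at chr14:48656781-48667644 on the minus strand, and its probe is ILMN_2691752. Raw intensities, before normalization, were 7027, 6984 and 6074 without growth factors, 1591, 1018 and 1583 with FGF2, and 6484, 5288 and 4733 with BMP4. On the normalized log2 scale the values were 12.70, 12.85 and 12.68 without growth factors, 10.35, 9.86 and 10.49 with FGF2, and 12.61, 12.29 and 12.42 with BMP4. OTX2 stayed clearly above background with FGF2 although its level was 17.5% of that without growth factors, a log2 difference of -2.51 ± 0.154 (SE) or 5.71-fold.

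GRM6 and VRTN are the dimmer members, and with FGF2 neither was detected on any of the 3 arrays. The GRM6 gene, at chr11:50850369-50866208, is read by probe ILMN_3162125. Its log2 intensity was 8.96, 8.91 and 7.35 without growth factors, 5.21, 5.13 and 5.08 with FGF2, and 8.11, 7.70 and 7.25 with BMP4. Replicate 3 without growth factors was closer to the BMP4 arrays than to its own group. Vrtn, at chr12:84641019-84651455, is read by ILMN_3162257. Its log2 intensity was 8.23, 9.11 and 8.01 without growth factors, 5.22, 5.31 and 5.04 with FGF2, and 7.63, 8.36 and 7.61 with BMP4. An undetected group gives only a bound, set by the dimmest detected probes of its arrays, so GRM6 was at least 5.79-fold lower and VRTN at least 5.98-fold lower with FGF2 than without growth factors.

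**Figure D1:**
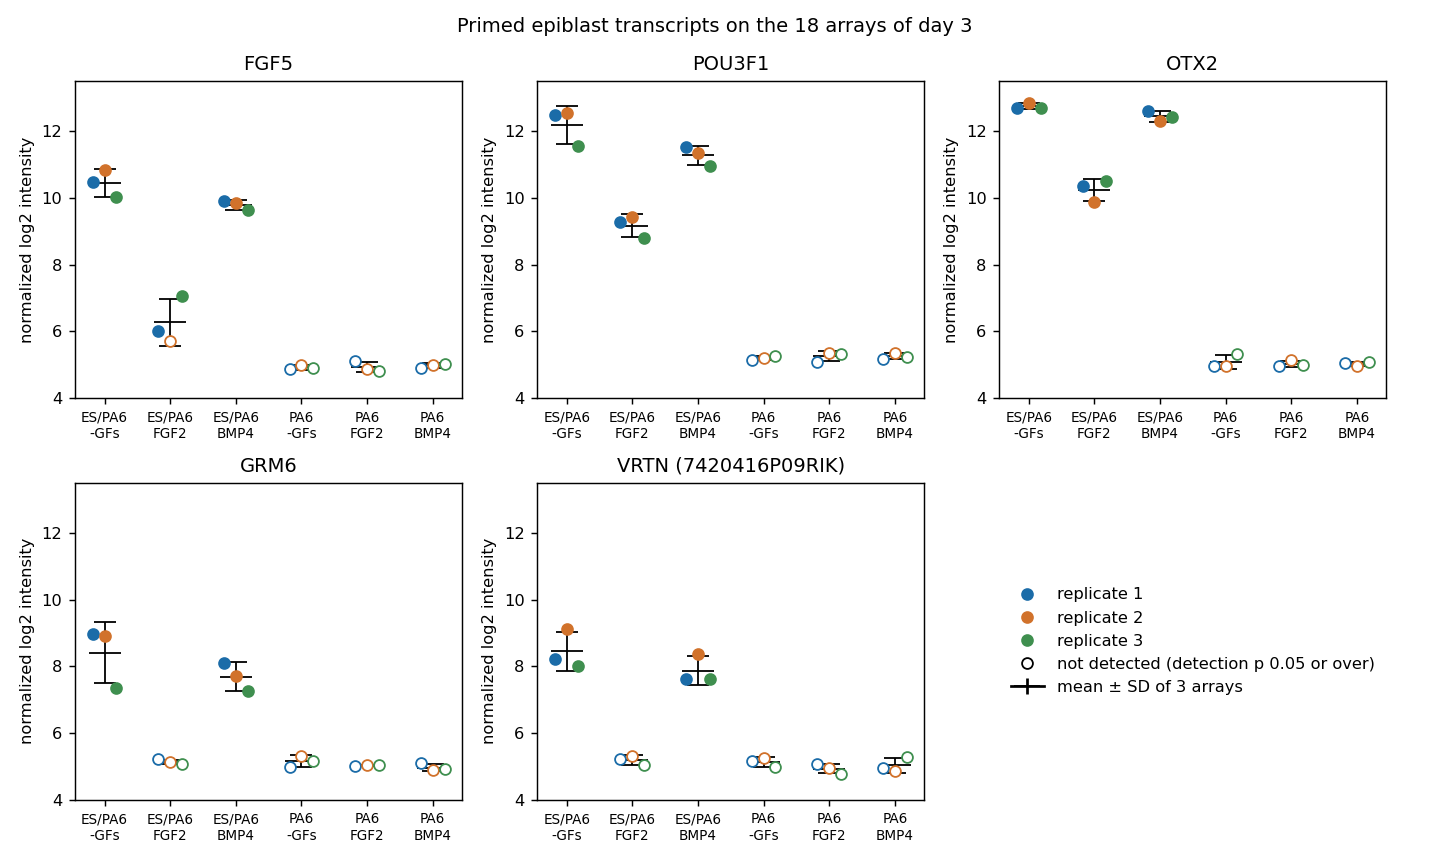
Normalized log2 intensity of each of the 5 transcripts on all 18 arrays, by group, with 1 point per array coloured by replicate number, open points where the probe was not detected, and the mean ± SD of 3 arrays in black. The FGF2 co-cultures lie below the -GFs and BMP4 co-cultures in every panel, and the PA6 points are all open, between 4.78 and 5.35.

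Set side by side, the 5 were lower with FGF2 by between 2.51 and 4.17 on the fitted log2 scale. Their median was -3.26 as fitted and -2.58 with GRM6 and VRTN at their bounds, against -0.01 over all genes tested. Over all genes 1.20% were called lower in this comparison, where called means a Benjamini-Hochberg adjusted p under 0.1 and a log2 change over 1 in size in limma, and 9.43% were lower with no overlap of the arrays. The 5 were chosen on this comparison and nothing is read from these shares. Within the 3 replicate sets the difference of FGF5 was -4.46, -5.11 and -2.94, and the smallest of these came from the set whose FGF2 array had the highest FGF5. POU3F1 varied least between sets, at -3.18, -3.11 and -2.75. The sets gave -2.35, -3.0 and -2.19 for OTX2. For GRM6 and VRTN no set gives a measured difference, since their FGF2 values are at background.

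Summed marker levels were compared between the co-culture groups. The summed level of the 9 ES cell markers was 16.31 to 16.65 on the log2 scale without growth factors, 16.63 to 16.81 with FGF2 and 16.66 to 16.77 with BMP4. The summed level of 11 stromal markers was 16.39 to 16.60 without growth factors, 15.96 to 16.17 with FGF2 and 16.08 to 16.54 with BMP4, against 17.18 to 17.33 in PA6 mono-cultures. The ES sum holds genes that themselves changed with FGF2, as NANOG and ZFP42 rose and LIN28 fell, so it is not a measure of the share of ES cells. Of the stromal markers THY1 was the 1 called lower with FGF2 in co-cultures. It was also 1 of the 3 called lower with FGF2 in PA6 mono-cultures, at -1.11 (adjusted p = 0.00641 in limma). Whether a difference in either summed level had a part in the levels of the 5 transcripts was not tested.

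BMP4 shifted the 5 transcripts far less. None of the 5 was called in co-cultures with BMP4 against those without growth factors, where 0.760% of all genes were called in either direction, and 4 of the 5 had an unadjusted p under 0.05 in limma, against 10.9% of all genes. The share called was 0.316% without -GFs replicate 2, 0.0608% with only the co-culture arrays in the fit and 1.31% with the replicate number as block. The comparison shares its -GFs arrays with the one that chose the transcripts, so its differences are not independent of that choice. POU3F1 had the largest difference, -0.92 ± 0.231 (SE; 95% interval -1.41 to -0.43), which left 53% of the -GFs level. Its adjusted p of 0.0815 in limma was under the threshold but its size was not. For FGF5 the difference was -0.65 (95% interval -1.21 to -0.10, adjusted p = 0.343 in limma), and 63.6% of the level remained.

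The other members had differences of similar size or smaller. OTX2 differed by -0.31 (95% interval -0.63 to 0.02), with 80.9% of its level, GRM6 by -0.72 (-1.38 to -0.05), with 60.8%, and VRTN by -0.58 (-1.10 to -0.06), with 66.7%. Their adjusted p-values in limma were 0.506, 0.402 and 0.375. All 15 differences within replicate sets were below 0, from -0.09 for GRM6 to -1.21 for POU3F1 and GRM6, while FGF5, POU3F1 and OTX2 were the 3 of 5 whose BMP4 arrays all lay below the -GFs arrays, as 6.97% of all genes did. The median of the 5 was -0.65 and that of all genes 0.00.

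The -GFs array of replicate 3 decided 2 of these calls. It held the lowest value of the group for each of the 5 transcripts. Without it, POU3F1 differed by -1.24 and GRM6 by -1.25 with BMP4, each at an adjusted p of 0.00658 in limma, and both were called. In a fit blocked on the replicate number POU3F1 had an adjusted p of 0.00203 in limma and VRTN one of 0.0932, and none of the 5 passed the fold threshold.

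**Figure D2:**
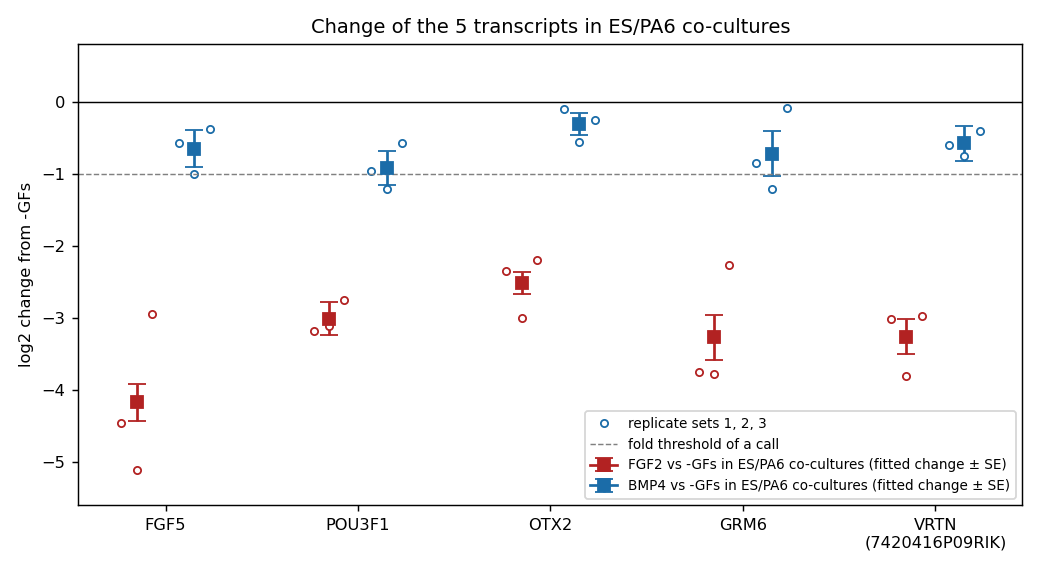
Fitted log2 change from the -GFs co-cultures (squares, ± SE) of each transcript with FGF2 and with BMP4, with the differences within replicate sets 1, 2 and 3 as open points from left to right and the fold threshold of a call at -1. The FGF2 changes run from -2.51 to -4.17 and the BMP4 changes from -0.31 to -0.92. The transcripts were chosen on the FGF2 change, so the gap between the treatments is a description. The FGF2 points of GRM6 and VRTN are against arrays at background and stand for bounds.

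FGF2 and BMP4 co-cultures were also set against each other. With FGF2 the level of FGF5 was 8.74% of that with BMP4, POU3F1 was at 23.3% and OTX2 at 21.6%. GRM6 was at least 3.52-fold and VRTN at least 3.99-fold lower with FGF2 than with BMP4. The FGF2 arrays took part in the choice of the transcripts, so these values are a description.

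PA6 cells alone had no measurable level of any of the 5. Over the 9 PA6 arrays none of the 45 values was detected, with detection p-values from 0.246 to 0.991 and log2 intensities from 4.78 to 5.35. Neither growth factor made a call among the 5 in PA6 mono-cultures. For FGF2 their log2 differences lay between -0.20 and 0.04, with adjusted p-values of 0.695 to 0.991 in limma, and 5.27% of all genes were called. For BMP4 they lay between -0.18 and 0.05, with adjusted p-values of 0.925 to 0.988, and 1.41% of all genes were called. No member had an unadjusted p under 0.05 in either comparison. Since no array detected the transcripts, these differences are between values at background.

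The comparison of co-cultures with PA6 mono-cultures in BMP4 used none of the arrays that chose the transcripts. Still, the probes passed the detection filter through co-culture arrays alone and so had to differ, and the values are a description. OTX2 was at least 76-fold higher, POU3F1 at least 33.8-fold and FGF5 at least 12.1-fold. The dim members were at least 2.82-fold (GRM6) and at least 3.2-fold higher (VRTN). Of all genes, 19.0% were called higher in this comparison, and nothing is read from the calls of the 5. With FGF2 the same contrast was at least 15.7-fold for OTX2, at least 7.53-fold for POU3F1 and at least 1.01-fold for FGF5, and GRM6 and VRTN were undetected in both culture types. The change with BMP4 was also set against the change with BMP4 in PA6 cells, and this interaction did not pass for any of the 5 (adjusted p = 0.278 to 0.804 in limma). Its PA6 side lies between undetected values, so it cannot show whether the culture types respond differently to BMP4.

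Other genes of the primed epiblast were partly lower as well. Of 23 listed, 20 were tested and 7 fell with FGF2 in co-cultures while 0 rose, that is 35% against the 1.20% called lower among all genes, with a median of -0.61. The list was chosen with earlier results of these data known, so this share is a description. LEF1, the nuclear partner of beta-catenin, fell by 2.57 (adjusted p = 1.79e-06 in limma), from 8.40 ± 0.465 to 5.83 ± 0.231 (SD, n = 3), and was detected on 1 FGF2 array. DNMT3B, the de novo DNA methyltransferase of the epiblast, fell by 2.20 (1.28e-07), from 15.31 ± 0.162 to 13.11 ± 0.0382, and its second probe differed by -2.98. FGF15, an FGF of the early neural plate, fell by 2.20 (0.000334).

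The rest of the 7 were the epithelial factor GRHL2 with -1.77, the zinc finger factor ZIC2 with -1.65, the Nodal antagonist LEFTY1 with -1.41 and SALL2 with -1.31. Another ZIC2 probe differed by -0.50. SALL2 was no longer called without FGF2 replicate 1, at -0.88. It was also detected in PA6 mono-cultures, at 9.32 without growth factors against 9.90 in the -GFs co-cultures. With FGF2 it differed by -0.55 in PA6 mono-cultures, which was not called. The list did not move as a block. Of the 20, 12 had an unadjusted p under 0.05 in limma with FGF2. UTF1 at -0.73 (adjusted p = 0.00509 in limma) and DNMT3L at -0.94 (0.0821) missed the fold threshold alone. NODAL at 0.14 (0.837) and the Nodal co-receptor TDGF1 at 0.93 (0.176) passed neither threshold. DNMT3L was called lower without -GFs replicate 3 (-1.12), FGF2 replicate 1 (-1.19) or FGF2 replicate 2 (-1.08). In PA6 mono-cultures DNMT3L went the other way with FGF2, from 10.20 to 11.98, by 1.78 (adjusted p = 0.000683 in limma). DNMT3A, FOXD3 and ZIC5 were not tested because too few arrays detected them. With BMP4, 0 of the 20 were called in limma, 5 had an unadjusted p under 0.05, and the median was -0.01. DNMT3B differed by -0.59 at an adjusted p of 0.0365 in limma, below the fold threshold, and SOX3 by -1.17 at 0.107, past the fold threshold alone. In the fit blocked on the replicate number 2 of the 20 were called with BMP4, SOX3 and, at 1.15, FGF8.

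Naive pluripotency genes were higher where the 5 transcripts were low. Of 16 listed, 14 were tested and 10 rose with FGF2 in co-cultures, 71.4% against 2.14% of all genes, with 0 lower and a median of 1.43. TBX3 rose by 2.75 (adjusted p = 1.08e-06 in limma), TCFCP2L1 by 2.38 (0.00039), KLF4 by 1.80 (0.000244) and KLF5 by 1.52 (0.000568), all transcription factors of the naive network. TCFCP2L1 and KLF5 were detected on no PA6 array. TBX3 and KLF4 were detected in PA6 mono-cultures without growth factors, at 8.05 and 10.15, against 8.15 and 9.57 in the -GFs co-cultures. With FGF2 they differed in PA6 mono-cultures by 0.41 and -0.86, and neither was called there. NANOG rose by 1.25 and ZFP42 (REX1), the classic naive marker, by 1.19, and both lost the call when single arrays were left out. NANOG differed by 0.93 without -GFs replicate 2, by 1.19 without FGF2 replicate 1 and by 1.10 without FGF2 replicate 3. ZFP42 differed by 0.97 without -GFs replicate 2, by 1.10 without FGF2 replicate 1 and by 1.12 without FGF2 replicate 2. ESRRB rose by 1.58 on its brighter probe and differed by 0.02 on the other, and the mean of both, at 0.80, was not called. TCL1 rose by 1.56 and NR5A2 by 1.34. SOCS3, the feedback inhibitor of LIF signalling, rose by 2.17 in co-cultures and by 2.85 in PA6 mono-cultures, so that its rise is not limited to cultures with ES cells. KLF2, PECAM1, DPPA3 and FGF4 were not called, at 0.78, 0.98, -0.03 and -0.22. PECAM1 was called without -GFs replicate 1 (1.27), -GFs replicate 3 (1.14) or FGF2 replicate 2 (1.11), and its other probe differed by 1.29. The naive list was also chosen with earlier results of these data known, so its share of calls is a description. The study itself picked NANOG and TBX3 among transcripts modulated in these samples, so their direction in particular is not independent.

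With BMP4 TBX3 and PECAM1 of the 14 naive genes were called, by 1.13 and 1.17, against 0.310% of all genes called higher. PECAM1 is also a marker of endothelial cells, and which cells carried it was not tested. The median of the list was 0.76, and 11 of the 14 had an unadjusted p under 0.05. PECAM1 (adjusted p = 0.0994 in limma) sat at the threshold, and TBX3 differed by 0.94 without -GFs replicate 2 and 0.96 without BMP4 replicate 1, below the fold threshold. The count of called naive genes was 0 without either of these arrays, 1 without BMP4 replicate 2 or 3, and 3 without -GFs replicate 3. In that last fit TCFCP2L1 was called, at 1.37, while PECAM1 was not, at 1.32 (adjusted p = 0.108 in limma).

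Of the core of the pluripotency network 12 genes were tested, and 10 of them were not called with FGF2. POU5F1 (OCT4) differed by -0.10 with FGF2 and SOX2 by 0.45, and neither was called. FBXO15 rose by 1.38 and LIN28, an RNA-binding protein that blocks let-7 maturation, fell by 1.63. Each is 8.33% of the list, against 2.14% of all genes called higher and 1.20% called lower. An unadjusted p under 0.05 in limma was found for 4 of the 12, and the median was -0.04. The 3 other LIN28 probes differed by -1.78, -1.15 and -1.92. With BMP4 0 of 12 were called in limma, and 1 had an unadjusted p under 0.05.

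**Figure D3:**
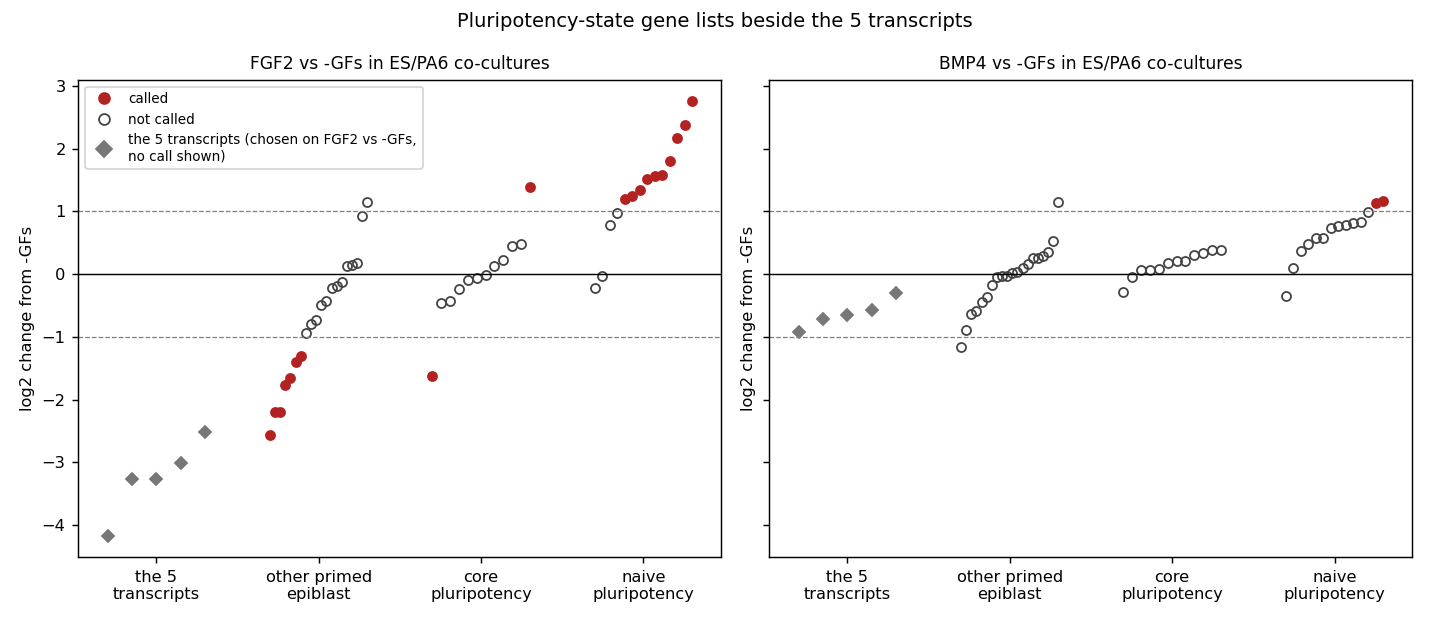
Log2 change from the -GFs co-cultures of the 5 transcripts (diamonds, chosen on the FGF2 comparison and shown with no call) and of the tested genes of 3 lists, with FGF2 on the left and BMP4 on the right; filled points were called. With FGF2, 7 of 20 other primed genes lie below -1 as called points and 10 of 14 naive genes above 1, while with BMP4 the called points are TBX3 and PECAM1.

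FGF receptors and genes of ERK feedback were looked at as well. Of 14 listed, 11 were tested and 0 were called in co-cultures with FGF2 in limma, with 2 at an unadjusted p under 0.05. Among all genes 1.20% were called lower and 2.14% higher, so 0 of 11 does not set the list apart. FGFR2 differed by -0.81 (adjusted p = 0.0447 in limma), below the fold threshold. DUSP6, the phosphatase induced by ERK, was at 12.36 in both the -GFs and the FGF2 co-cultures, a log2 difference of 0.01. In PA6 mono-cultures DUSP6 rose with FGF2 by 2.39, DUSP4 by 1.41 and IER3 by 1.22. EGR1, an immediate early gene of ERK signalling, fell there by 2.16 and FGFR2 by 1.26. In all, 5 of the 11 were called in PA6 mono-cultures, where 5.27% of all genes were called in either direction. Of 10 paralogues of FGF5, OTX2, POU3F1 and GRM6 only FGF4 and OTX1 were measured, and with FGF2 in co-cultures they differed by -0.22 and 0.04, with 0 called in limma and 0 at an unadjusted p under 0.05.

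Markers of other fates that the co-cultures could hold were set beside all genes, of which 2.14% were called higher and 1.20% lower with FGF2. None of 6 measured early neural genes was called in limma, and 0 had an unadjusted p under 0.05. A list of 6 is too short for this to differ from all genes. Of 7 measured primitive streak genes GSC rose by 1.54, of 7 visceral endoderm genes LAMA1 rose by 1.0, and of 11 stromal genes THY1 fell by 1.08. These single calls make up 14.3%, 14.3% and 9.09% of their lists. The calls of GSC and LAMA1 were lost after cubic spline normalization, at 0.91 and 0.92, and that of THY1 without FGF2 replicate 1, at -0.81, or without -GFs replicate 2, at -0.90. LAMA1 was also lost without -GFs replicate 1, at 0.87, or FGF2 replicate 3, at 0.89. With BMP4, where 0.450% of all genes were called lower, ZIC1 was the 1 neural gene called, from 8.35 ± 1.86 (SD, n = 3) to undetected, which is at least 5.24-fold, and COL3A1 was the 1 stromal gene, at -1.16. Neither call held up when arrays were left out. ZIC1 was lost without -GFs replicate 2 or 3 or any BMP4 array (adjusted p = 0.102 to 0.162 in limma). COL3A1 was lost without -GFs replicate 1 or 2 or any BMP4 array (0.154 to 0.218). The other COL3A1 probe differed by -1.30 with BMP4 in co-cultures. In PA6 mono-cultures COL3A1 was called lower with BMP4, at -1.58 (adjusted p = 0.00828 in limma). Whether these shifts had a part in the levels of the 5 transcripts was not tested.

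Over the 9 co-culture arrays the 5 transcripts ran close together, with r from 0.931 to 0.989 over the 10 pairs. These arrays share the 3 treatments, so most of this follows from the differences between groups. Among all genes tested the profiles most like the mean of the 5 were those of DNMT3B (r = 0.992), PIM2 (0.987), AL022832 (0.985), LEF1 (0.983), LOC672498 (0.982), ACSL5 (0.982) and TMEM54 (0.98). Likeness is Pearson's r and takes no account of size. PIM2, a serine/threonine kinase, differed by -3.10 with FGF2 and -0.66 with BMP4, in the range of the 5. AL022832 differed by -0.61 and ACSL5, an acyl-CoA synthetase, by -0.87 with FGF2, and both were also detected in PA6 cells.

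The closest single genes differed between members. For FGF5 it was TMEM54 (r = 0.991), for POU3F1 LEF1 (0.991), for OTX2 again TMEM54 (0.978), for GRM6 CALCA (0.982) and for VRTN DPEP1 (0.986). DPEP1 had a higher mean in PA6 mono-cultures without growth factors, 14.46, than in the -GFs co-cultures, 11.44, whereas VRTN was undetected in PA6 cells.

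**Figure D4:**
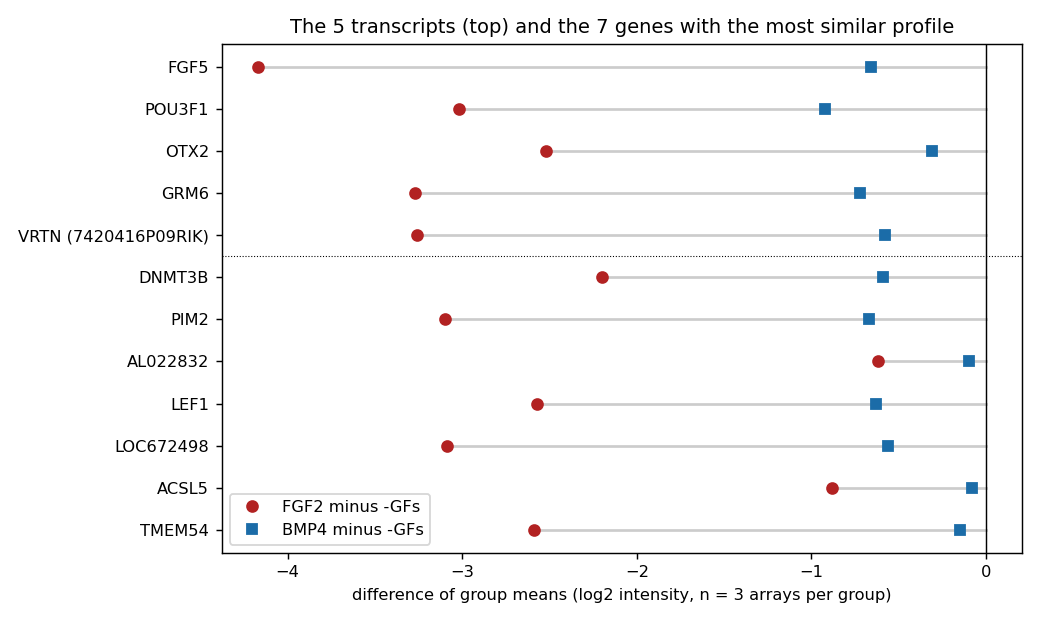
Difference of group means in log2 intensity with FGF2 (circles) and with BMP4 (squares) from the -GFs co-cultures, for the 5 transcripts above the dotted line and the 7 genes with the most similar profile below it, n = 3 arrays per group. The FGF2 differences of the 7 genes run from -0.61 to -3.10, and each BMP4 square lies nearer to 0 than its FGF2 circle.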

How the data were processed

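RNA of mouse co-cultures and of stroma alone was profiled on Illumina MouseWG-6 v2.0 bead arrays. The deposited intensity values are non-normalized, from 55.5 to 72879, exported by the authors with GenomeStudio 2011.01 (the submitters' processing notes), and the deposited detection p-values set each probe against that array's negative controls. Of the table, 45281 probes were used and 5 stray lines left out. The labels' BMP4 dose is given; the study's methods name a lower one for slides.

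Intensities were normalized here with neqc (limma 3.58.1, R 4.3.3), which infers the background from detection, with an offset of 16 before quantile normalization and log2. Cubic spline normalization is what the study used. The offset understates changes of dim genes. Probes detected on at least 3 of 18 arrays were kept (22987), and the probe with the largest mean stood for its gene. A limma fit of 6 group means on 18 arrays gave all tests, adjusted over 16446 genes, and was checked on simulated data. With 3 arrays against 3 an exact permutation test cannot give a p under 0.1. The number of arrays limits the precision, and dim probes have bounds alone.

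Members and gene lists were chosen with earlier results of these data known. Named genes are the members, the listed genes that were called, a few fixed uncalled ones, and the most similar profiles. Uncalled genes named beyond these were chosen after their values were seen. Some genes that the rule names are not reported here.

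Same-numbered co-culture arrays deviated together (r = 0.325 to 0.521 over 9 pairs), so their numbers were taken to pair them, and PA6 arrays did so weakly (0.0628 to 0.164). Alternatives were other normalizations, filters and probe rules, other variance models, a replicate block, and leaving out each array.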

Additional observations from a re-analysis of the deposited data

How the results depend on the processing

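Of 161 recomputed counts and medians, 141 stayed at or near their value. Part of this was fixed in advance. The counts of members called in PA6 mono-cultures, over 18 settings for each growth factor, rest on values at background. The count for co-cultures against PA6 mono-cultures in BMP4, over 17 settings, had to be high. The members' median with FGF2, over 18 settings, comes from the comparison that chose them. The members' median difference with FGF2, -3.26, was -2.42 after quantile normalization of uncorrected intensities and -2.41 after a cubic spline, where FGF5 differed by -3.08, GRM6 by -2.0 and VRTN by -1.98. The count of members called with BMP4 in co-cultures, 0, ran from 0 to 2 over arrays left out, with 2 without -GFs replicate 3. The count of other primed genes called with BMP4, 0, was 1 with a trended robust fit, 2 with the replicate block, and 0 to 1 over arrays left out (1 without -GFs replicate 1 and without BMP4 replicate 1). The count of naive genes called with BMP4, 2, was 1 with quantile normalization without background correction, the cubic spline, median scaling, no filter, a filter of 1 array, array weights and the adjusted p threshold of 0.05, was 0 with the mean of kept probes and with only the co-culture arrays in the fit, and ran from 0 to 3 over arrays left out (0 without -GFs replicate 2 and without BMP4 replicate 1). With FGF2 the count of other primed genes ran from 7 to 9 and that of naive genes from 8 to 11. The block on the replicate number, fitted within each culture type, gave calls with BMP4 to SOX3 and FGF8, the 2 primed genes above, and among 95 other single-gene comparisons changed 1 call, WNT3A with BMP4. Over all genes, 550 were called with FGF2 in co-cultures, and 275 after quantile normalization of uncorrected intensities or 273 after the cubic spline. With BMP4 the 125 called became 68 and 69 there, 79 at the adjusted p threshold of 0.05, 10 with only the co-culture arrays, 215 with the block and 52 without -GFs replicate 2. Signal over background limits GRM6 and VRTN with FGF2, which have bounds alone.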

Other observations

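Replicates of a group also varied, and the 5 transcripts did not vary as one. After the group means were taken out, correlations of the deviations over the 9 co-culture arrays ran from -0.153 to 0.89 over the 10 pairs, with a median of 0.334. They share the arrays and the replicate sets and carry no test. POU3F1 and GRM6 moved together (r = 0.89), as did FGF5 and OTX2 (0.734), whereas POU3F1 and OTX2 did not (-0.153). The FGF2 array of replicate 3 had the highest FGF5 and OTX2 of its group, at 7.06 and 10.49, and the lowest POU3F1, at 8.79.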
